A study of Mus musculus with 3 samples.

Results

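Intercalated cells of the connecting tubule and collecting duct move acid and base between blood and urine, and they are recognised by a small set of transport genes. The 7 genes described here were the chloride-bicarbonate exchangers Slc4a1 (AE1) and Slc26a4 (pendrin), the vacuolar-type proton pump (V-ATPase) subunits Atp6v1b1, Atp6v1g3 and Atp6v0d2, the cytosolic carbonic anhydrase Car2 and the transcription factor Foxi1. They were chosen by name from 22535 genes in the tables. Their unique molecular identifiers (UMIs, each standing for 1 captured RNA molecule) were counted in 26760 cells, by cell class and by library, and the exchangers were also compared within single cells.

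The cells came from the kidney cortex of WT1CreERT2; Rosa26-tdT fl/+ mice, in which tamoxifen-activated Cre, driven from the WT1 locus, switches on tdTomato (tdT) in cells that express WT1 and in their descendants. All 3 libraries were of this genotype, and each pooled 4 kidneys. The Sham library mixed tdT+ and tdT- cells 2:1 after a sham operation, the IRI24h-TDN library mixed them likewise at 24 h after bilateral ischemia and reperfusion (IRI, severe in the submitters' wording), and the IRI24h-TD library held tdT+ cells alone at that time. Since 1 library stood for each condition, differences between conditions had no replicates and were not tested. The ages and sexes of the mice are not given in the sources used here.

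In the kidney, type A intercalated cells secrete acid: a V-ATPase in the apical membrane pumps protons into the urine, while AE1 returns bicarbonate to the blood across the basolateral membrane. Type B and non-A, non-B cells carry pendrin in the apical membrane and secrete bicarbonate in exchange for chloride. Carbonic anhydrase II supplies protons and bicarbonate to both, and Foxi1 is required for intercalated cells to form and to express several of these transporters.

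Of 10062, 10062 and 9884 barcodes in Sham, IRI24h-TDN and IRI24h-TD, 8047, 9024 and 9689 had at least 200 genes and at most 50% mitochondrial UMIs. These kept cells had medians of 7746, 9151 and 9529 UMIs and held 65065819, 88290370 and 92889327 UMIs. The libraries shared 82 to 96 kept barcodes in pairs. Levels are given as CPM, the UMIs of a gene over all UMIs of a class in a library on the usual scale, with exact Poisson 95% intervals, and shares with exact Clopper-Pearson 95% intervals. Both cover counting error only. Some genes that nearly all cells express were close to 0 in both IRI tables: Rps29 and Gapdh were at 470.2 and 222 CPM in podocyte-like cells of Sham, at 1.86 and 3.27 CPM in those of IRI24h-TDN and at 1.92 and 2.69 CPM in those of IRI24h-TD. Whether the tables were counted in the same way was not tested.

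Cells were clustered with the 7 genes and 57 other acid-base genes left out, and clusters were named from marker lists that held none of them. A total of 567 intercalated-like cells was found: Sham held 190 (2.36% of its cells), IRI24h-TDN 365 (4.04%) and IRI24h-TD 12 (0.124%). These shares were set in part by sorting and mixing on tdT, and are not read as a difference between conditions. One cluster of 269 cells was led by markers of type A cells: Aqp6 was at 2554 CPM against 9.96 CPM in the other cluster, Kit at 744 against 105, Adgrf5 at 2020 against 249, Dmrt2 at 286 against 4.30 and Clnk at 27.8 against 7.24. The other cluster, of 298 cells, was led by markers of type B cells: Insrr was at 750 CPM against 16.4, Hmx2 at 226 against 2.01, Spink8 at 1169 against 266, and Tldc2 at 36.9 against 0. Stap1 and P2ry14 went the other way from their lists, with 40.2 and 82.0 CPM in the first cluster and 81.0 and 32.8 CPM in the second, and Slc35f3 had 0.453 CPM at most. The clusters are called type A-like and type B-like. Type B and non-A, non-B cells were not separated.

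Among the cells sampled here, the 7 genes marked the intercalated-like cells to different degrees. Intercalated-like cells made up 2.12% of the cells and 3.01% of the UMIs, and they held 97.5% (97.2 to 97.8) of the Slc26a4 UMIs, 96.5% (95.9 to 97.0) of those of Slc4a1, 96.4% (96.1 to 96.6) of those of Atp6v1g3, 95.3% (94.7 to 95.9) of those of Foxi1, 90.2% (89.8 to 90.6) of those of Atp6v0d2, 75.9% of those of Atp6v1b1 and 44.7% (44.3 to 45.0) of those of Car2. The share of Atp6v0d2 was 96.4% in Sham and 87.8% in IRI24h-TDN, and that of Car2 44.0% and 51.2%. In IRI24h-TD, where 12 cells were intercalated-like, the shares were 84.6% for Atp6v1g3, 75.5% for Atp6v0d2, 55.8% for Atp6v1b1 and 7.86% for Car2. In each library the exchangers, Atp6v1g3, Foxi1 and Atp6v0d2 had a larger part of their UMIs in these cells than Atp6v1b1 and Car2, which were also found in other nephron segments.

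An intercalated-like cell had UMIs of a median of 6 of the 7 genes, and 504 of the 567 cells (88.9%) had at least 5. In all other classes the median was 0, 1 or 2 genes. All 7 genes were at least 4-fold higher in intercalated-like cells than in all other cells together, as were 9.71% of the 3644 genes with at least 50 CPM in intercalated-like cells. Genes entered this comparison by being high in intercalated-like cells, so the count describes the genes and is not a test. The level in all other cells together also depends on which cells were sampled. The ratios ran from 26.0-fold for Car2 (5011 against 192 CPM) and 101-fold for Atp6v1b1 (1034 against 10.2 CPM) to 1268-fold for Slc26a4 (1646 against 1.30 CPM).

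**Figure D1:**
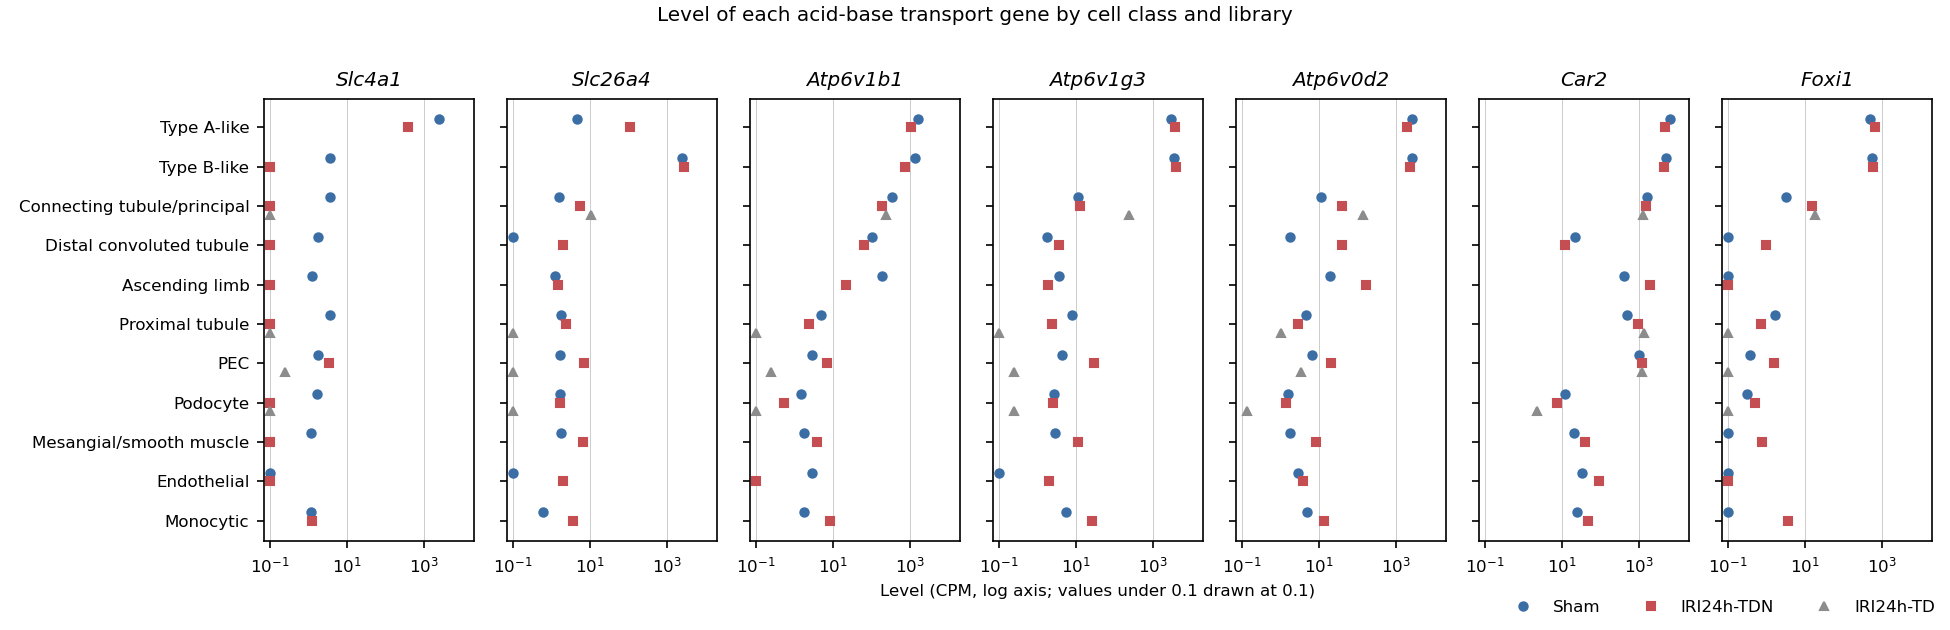
Level of each of the 7 genes in CPM (log axis) by cell class, with Sham as circles, IRI24h-TDN as squares and IRI24h-TD as triangles, each point 1 class of at least 20 cells in 1 library and values under 0.1 drawn at 0.1. Slc4a1 is high in type A-like cells and Slc26a4 in type B-like cells, and the pump genes and Foxi1 are high in both. Car2 is also at 1653 CPM in Sham and 1551 CPM in IRI24h-TDN in connecting tubule and principal-like cells. In parietal epithelial cell (PEC)-like cells it is at 1020 CPM in Sham and 1196 CPM in IRI24h-TDN. It reaches 404 to 1890 CPM in ascending limb-like cells and 496 to 1326 CPM in proximal tubule-like cells.

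Sequences just before the transcription starts of 3 of the genes that were found together in these cells are shown for their context. RefSeq windows of 300 bases (GRCm38.p6, 250 bases before the start to 50 after it, in the direction of the gene) were matched for 4 of the 7 genes. Those of Atp6v1b1 (chr6:83742767-83743066, plus strand), Atp6v1g3 (chr1:138273488-138273787, plus strand) and Slc26a4 (chr12:31559935-31560234, minus strand) are printed in lower case, with capitals for matches to TGTTTAC or its shorter core TGTTT, the letters that forkhead factors such as Foxi1 are known to bind, on either strand (GTAAACA or AAACA on the other).
Atp6v1b1: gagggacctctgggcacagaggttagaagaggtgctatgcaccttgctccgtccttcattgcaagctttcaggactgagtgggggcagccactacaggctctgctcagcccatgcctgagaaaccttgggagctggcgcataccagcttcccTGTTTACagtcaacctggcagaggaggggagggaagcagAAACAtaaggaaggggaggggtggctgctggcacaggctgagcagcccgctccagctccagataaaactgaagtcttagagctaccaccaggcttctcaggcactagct
Atp6v1g3: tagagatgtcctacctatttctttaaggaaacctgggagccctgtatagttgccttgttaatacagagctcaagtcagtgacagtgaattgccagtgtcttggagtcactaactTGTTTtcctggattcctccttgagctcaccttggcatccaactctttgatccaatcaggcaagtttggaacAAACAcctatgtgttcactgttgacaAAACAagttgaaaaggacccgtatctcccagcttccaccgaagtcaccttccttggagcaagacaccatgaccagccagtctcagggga
Slc26a4: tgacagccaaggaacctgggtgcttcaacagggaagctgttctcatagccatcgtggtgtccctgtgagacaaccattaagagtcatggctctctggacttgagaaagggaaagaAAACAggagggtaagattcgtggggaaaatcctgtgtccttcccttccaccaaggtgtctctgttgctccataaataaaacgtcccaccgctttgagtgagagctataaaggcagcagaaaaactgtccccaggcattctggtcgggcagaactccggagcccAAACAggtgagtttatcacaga
The full TGTTTAC, which contains the core, occurred in 1 of the 4 windows, that of Atp6v1b1, beginning 98 bases before the start, and in 3.65% of 32851 promoter windows of the same length. The core occurred in 4 of 4 windows and in 50.5% of all windows. A match is a description of letters and not a site of binding.

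Slc4a1 encodes AE1, the exchanger of type A cells and of red blood cells. The annotation of GRCm38 (GENCODE M21) places this protein-coding gene at chr11:102348824-102366203 on the minus strand. In type A-like cells its level was 2540 CPM (2455 to 2627) in the 125 cells of Sham, 383 CPM (353 to 415) in the 137 cells of IRI24h-TDN and 71.9 CPM (26.4 to 156) in the 7 cells of IRI24h-TD, where all 6 UMIs came from 1 cell. In type B-like cells it was 3.58 CPM (0.738 to 10.5) in the 65 cells of Sham and 0 in the 228 cells of IRI24h-TDN and the 5 cells of IRI24h-TD, where a count of 0 allows up to 0.854 and 45.4 CPM (3 UMIs). In Sham and IRI24h-TDN Slc4a1 was therefore found almost wholly in 1 of the intercalated-like clusters. Haemoglobin and other erythroid UMIs numbered 929 in Sham and 5 in each IRI library, and the 3 barcodes with at least 10 of them, all in Sham, had 0 Slc4a1 UMIs.

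Slc4a1 was lower in type A-like cells of IRI24h-TDN than in those of Sham. The log2 ratio was -2.73 (counting interval -2.86 to -2.60), a level 6.63-fold lower. In Sham a type A-like cell had a median of 23 Slc4a1 UMIs (quartiles 12 and 39, highest 116) and 1 of 125 cells had none. In IRI24h-TDN the median was 2 UMIs (quartiles 0 and 5, highest 38), and 43 of 137 cells had none. The cells thus overlapped, but most cells of IRI24h-TDN lay below the lower quartile of Sham. A UMI of Slc4a1 was found in 99.2% of type A-like cells of Sham and 68.6% of those of IRI24h-TDN, and in 97.5% and 38.7% after every cell was thinned to 2000 UMIs.

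Markers of type A cells that were used to name the cluster are given beside Slc4a1. Aqp6, a water channel of intracellular vesicles, was at 2816 CPM in Sham and 2398 CPM in IRI24h-TDN, Adgrf5 at 2499 and 1655 CPM, Kit at 974 and 570 CPM and Dmrt2 at 336 and 255 CPM. These 4 markers stood closer to their Sham levels than Slc4a1. Unlike Slc4a1, they were not held out of the clustering and they named the cluster, so cells low in them could fall outside it. The comparison is therefore a description and not a test. Clnk and Stap1, also on the type A list, were not compared between libraries. Of 4047 genes with at least 50 CPM in either library, 4.3% were at least 2-fold lower and 7.81% at least 2-fold higher in type A-like cells of IRI24h-TDN, and among the 7 genes 1 was lower (Slc4a1) and 1 higher (Slc26a4, described below). The median log2 ratio of the 7 genes was -0.43 and that of all 4047 genes 0.01. Of the 174 lower genes, 72 were also at least 2-fold lower in podocyte-like cells, 41 of them ribosomal protein genes. Without these 72 genes 2.57% of 3975 genes were lower and 2 genes were lower than Slc4a1, against 40 before. None of the 7 genes could be among the 72, because none reached 50 CPM in podocyte-like cells. Slc4a1 was at 1.63 CPM there in Sham and at 0.0409 CPM in IRI24h-TDN, so this step could not take it out. Podocyte-like cells, which should lack Slc4a1, had a UMI in 1.35% of cells of Sham and 0.0395% of cells of IRI24h-TDN (median depths 8317 and 9400 UMIs), while Slc26a4 was found in 1.16% and 1.40% of them. The part of counting in the ratio of Slc4a1 was not tested. Markers of other cells in type A-like cells differed too: all 10 podocyte markers were detected, at a summed level of 1857 CPM in Sham and 4479 CPM in IRI24h-TDN, and the median mitochondrial share of a cell's UMIs was 22.2% and 20.2%. Their part in the ratio was not tested.

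Slc26a4 encodes pendrin, the apical exchanger of type B cells, and lies at chr12:31519827-31559969 on the minus strand. In type B-like cells its level was 2407 CPM (2303 to 2514) in Sham, 2775 CPM (2720 to 2830) in IRI24h-TDN and 3586 CPM (3144 to 4073) in IRI24h-TD, where 66.2% of the UMIs came from 1 of the 5 cells. The log2 ratio of IRI24h-TDN over Sham was 0.21 (0.14 to 0.28). A cell had a median of 24 UMIs in Sham (quartiles 0 and 49, 19 of 65 cells at 0) and of 40 in IRI24h-TDN (quartiles 15.8 and 68, 25 of 228 cells at 0), and the ranges of the libraries overlapped almost fully, from 0 to 126 and from 0 to 151. Slc26a4 was thus 1.15-fold higher in IRI24h-TDN, with a larger share of cells at 0 in Sham. In the cells with Slc26a4 alone its level was 2866 CPM in the 43 of Sham and 3054 CPM in the 203 of IRI24h-TDN. The cells with neither exchanger were low in other intercalated genes: the 19 such cells of Sham had 453 CPM of Atp6v1g3 against 4120 CPM in the 43 cells with Slc26a4 alone, and the 25 of IRI24h-TDN had 131 CPM against 4260 CPM, with 3345 CPM of the injury gene Lcn2 in 15 cells. When only cells with UMIs of at least 3 of the 14 intercalated markers were kept, 5 of 50 type B-like cells of Sham and 2 of 198 of IRI24h-TDN had neither exchanger.

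In type A-like cells Slc26a4 was at 4.48 CPM (1.65 to 9.76) in Sham, with 6 UMIs in 5 of 125 cells, and at 111 CPM (95.2 to 129) in IRI24h-TDN, with 174 UMIs in 9 of 137 cells, 43.7% of them from 1 cell. It passed the limit of 50 CPM only through IRI24h-TDN and therefore had to be higher there. Of the 174 UMIs, 173 lay in 8 cells without Slc4a1, and these 8 cells had 270 CPM of the type B marker Insrr and 94.8 CPM of Aqp6, the latter in 2 cells. The 93 cells with Slc4a1 alone had 2.83 CPM of Insrr and 3049 CPM of Aqp6. The higher level in type A-like cells thus rested on 8 cells whose other genes differed from those of the cluster. Its log2 ratio was 4.63 (3.48 to 6.10), 2.98 without the correction between libraries, 2.20 after thinning and 5.96 with each cell named without clusters.

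The mixture of the types differed between the libraries, and the ratios of the exchangers over both types together differed from those within them. Type A-like cells were 125 of 190 in Sham and 137 of 365 in IRI24h-TDN, and over all intercalated-like cells Slc4a1 was at 1563 and 118 CPM (log2 ratio -3.73, -3.85 to -3.60) and Slc26a4 at 930 and 1953 CPM (log2 ratio 1.07). Of 4024 genes, 3.9% were at least 2-fold lower and 6.06% at least 2-fold higher there, as were Slc4a1 and Slc26a4. Within the types, 5.12% of 4064 genes were at least 2-fold lower and 5.88% at least 2-fold higher in type B-like cells, and 0 of the 6 genes with at least 50 CPM there were in either direction. The median log2 ratio of the 6 genes was -0.028 and that of all 4064 genes -0.015, and after scaling by TMM the first was 0.039.

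Most single cells with an exchanger held only one of the pair. Of the 567 intercalated-like cells, 214 had UMIs of Slc4a1 alone, 260 of Slc26a4 alone, 8 of both and 85 of neither. Cells with both were thus 1.66% (0.719 to 3.24) of the 482 cells with either, 7 of 171 in Sham, 1 of 305 in IRI24h-TDN and 0 of 6 in IRI24h-TD. With at least 2 UMIs of each exchanger asked for, 1 of 443 cells had both (0.226%), and at 2000 UMIs per cell 0 of 406 did, which allows a share of up to 0.739% when 3 cells are taken as the limit, with an exact upper bound of 0.904%.

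In 7 of the 8 cells with both exchangers the smaller count was 1 UMI. The pairs of Slc4a1 and Slc26a4 UMIs were 56 and 1, 26 and 1, 21 and 2, 3 and 1, and 7 and 1 in type A-like cells, and 1 and 126, 1 and 81, and 1 and 21 in type B-like cells. The minor exchanger made up 2.57% of the UMIs of both in these cells. They were deeper than the rest, with a median of 18432 UMIs against 12694 in the 474 cells with 1 exchanger, and 2 of the 8 were among the 6% of cells with the highest doublet scores, as were 34 of the 567 intercalated-like cells. Single UMIs were found elsewhere too: among cells that were not intercalated-like, 1.27% had a UMI of Slc4a1 and 1.06% of Slc26a4 in Sham, 0.0924% and 1.55% in IRI24h-TDN, and 0.0103% and 0.0517% in IRI24h-TD. In Sham, 3 of 65 type B-like cells (4.62%) had 1 Slc4a1 UMI each and 5 of 125 type A-like cells (4.0%) had Slc26a4, against 1.35% and 1.16% of podocyte-like cells, at median depths of 11951, 10158 and 8317 UMIs.

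**Figure D2:**
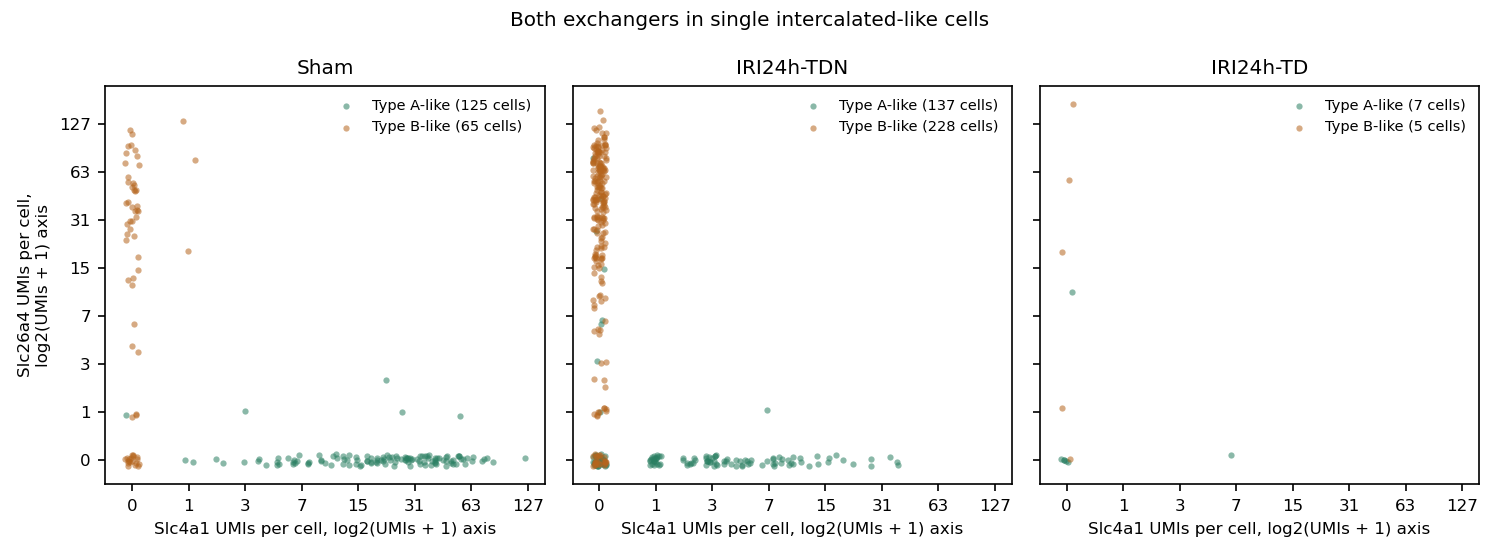
UMIs of Slc4a1 (horizontal) and Slc26a4 (vertical) in each intercalated-like cell, on log2(UMIs + 1) axes labelled in UMIs with points spread slightly, for Sham, IRI24h-TDN and IRI24h-TD from left to right, with type A-like and type B-like cells in different colours. Nearly all cells lie along 1 of the axes, 8 cells have both exchangers, and the type A-like cells of IRI24h-TDN lie nearer 0 on the Slc4a1 axis than those of Sham.

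Cells with neither exchanger differed between the types. In type A-like cells they numbered 0 of 125 in Sham and 35 of 137 in IRI24h-TDN, and the 35 cells had 3952 CPM of Atp6v1g3, 843 CPM of Atp6v1b1, 1677 CPM of Atp6v0d2, 3376 CPM of Car2 and 624 CPM of Foxi1, with 1373 CPM of Aqp6 and 1654 CPM of Adgrf5. The 93 cells of IRI24h-TDN with Slc4a1 alone had 3765, 1211, 2117, 5657 and 718 CPM of the same 5 genes, with 3049 CPM of Aqp6 and 1791 CPM of Adgrf5. Their median depths were close, at 10734 and 10365 UMIs. The type A-like cells of IRI24h-TDN without an exchanger thus still had UMIs of the other 5 genes, all but Atp6v1g3 at lower levels than in the cells with Slc4a1 alone. The counting intervals overlapped for Foxi1 (544 to 712 and 668 to 771 CPM) and for Atp6v1g3 (3747 to 4165 and 3649 to 3884 CPM). Aqp6 was lower in the cells without an exchanger too. The type B-like cells without an exchanger, described above, had much less of Atp6v1g3.

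The genes beside the exchanger separated the cells as well. Between the 214 cells with Slc4a1 alone and the 260 with Slc26a4 alone, the other 5 genes differed by less than 2-fold, with log2 differences of 0.67 for Atp6v1b1, 0.30 for Car2, -0.09 for Atp6v0d2 and Foxi1 and -0.30 for Atp6v1g3. That of Atp6v1b1 was 0.08 within Sham and 0.61 within IRI24h-TDN, and that of Foxi1 was -0.41 and 0.22. By the size of the ratio, the 10 genes highest in cells with Slc4a1 alone were Aqp6 (226-fold, 2970 against 13.1 CPM), Dmrt2 (57.5-fold), Cbr2, Muc20, Pitpnc1, Pdlim3, Tgif1, Mme (8.62-fold), Ckb and Pygm (7.90-fold). Mme encodes the membrane peptidase neprilysin, Ckb a creatine kinase and Pygm a glycogen phosphorylase. The 10 highest in cells with Slc26a4 alone were Nbea (392-fold, 337 against 0.859 CPM), Ank, Dcn, Insrr (186-fold, 799 against 4.30 CPM), Hmx2, Syt7, Enpp2, Fgg, Igfbp5 and Sprr1a (47.5-fold). Insrr encodes a receptor of the insulin receptor family that senses alkaline conditions, Hmx2 is a homeobox gene with 950 UMIs against 0 and so at least 183-fold higher, and Nbea encodes a protein of vesicle traffic. The ratios join libraries that gave different numbers of cells to the groups, 120 and 44 in Sham and 93 and 211 in IRI24h-TDN, and the order of the genes differed within them: the log2 difference was 4.43 in Sham and 6.27 in IRI24h-TDN for Dmrt2, 6.23 and 2.73 for Cbr2, and -2.60 and -6.36 for Fgg. All 20 genes kept their direction within Sham and within IRI24h-TDN, though Fgg was found in 46 cells with 14.5% of its UMIs from 1 of them. The 20 genes were picked by their large ratios over cells nearly all from these libraries. Keeping the direction was therefore largely set by the choice and is not a test. Aqp6, Dmrt2, Insrr and Hmx2 were among the markers that named the clusters.

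The V-ATPase is built from the V1 sector, which splits ATP, and the V0 sector, which carries protons through the membrane, and several subunits have an isoform of acid-secreting cells beside a general one. Atp6v1b1 encodes the B1 subunit of V1 (chr6:83742990-83758855, plus strand). It was at 1617 CPM (1550 to 1687) in type A-like cells of Sham, 1061 CPM (1011 to 1114) in those of IRI24h-TDN and 802 CPM (622 to 1019) in those of IRI24h-TD. In type B-like cells it was at 1347 CPM (1269 to 1427), 737 CPM (709 to 766) and 666 CPM (484 to 894). The log2 ratios of IRI24h-TDN over Sham were -0.61 (-0.70 to -0.51) and -0.87 (-0.97 to -0.77), in the same direction in both types and under 2-fold.

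Outside intercalated-like cells Atp6v1b1 was found in the distal nephron of Sham, with 345 CPM (319 to 372) in connecting tubule and principal-like cells, 186 CPM (157 to 218) in ascending limb-like cells and 105 CPM (79.6 to 135) in distal convoluted tubule-like cells. These neighbours did not overlap in their counting intervals. It was at most 5.63 CPM in the other classes of at least 20 cells of Sham. In IRI24h-TDN the same classes had 184 CPM (170 to 199), 22.1 CPM (18.1 to 26.8) and 64.0 CPM (57.9 to 70.6), so that it was lower in each of the 3, and the last 2 stood in the opposite order. The log2 ratios were -0.90, -3.07 and -0.71. In ascending limb-like cells Atp6v1b1 reached 50 CPM only in Sham and therefore had to be lower in IRI24h-TDN.

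Atp6v1g3 encodes the G3 subunit of V1 (chr1:138273738-138289462, plus strand). Its levels in type A-like cells were 3031 CPM (2939 to 3126) in Sham, 3727 CPM (3632 to 3824) in IRI24h-TDN and 2168 CPM (1863 to 2508) in IRI24h-TD, and in type B-like cells 3500 CPM (3375 to 3629), 3883 CPM (3818 to 3948) and 4660 CPM (4154 to 5211). It was therefore near its Sham level in both types of IRI24h-TDN, with log2 ratios of 0.30 and 0.15. Atp6v1g3 was found in 99.2% of type A-like cells of Sham and 99.3% of those of IRI24h-TDN, and in 83.1% and 88.2% of type B-like cells, against 2.20% and 2.19% of podocyte-like cells. No other class of Sham with at least 20 cells had more than 20.5 CPM. Neutrophil-like cells of IRI24h-TDN had 561 CPM, and 3 neutrophil-like cells held 98.4% of the UMIs of Slc4a1, Slc26a4, Atp6v1g3 and Foxi1 in that class. Over all classes, 23 cells outside the intercalated-like clusters had at least 10 UMIs of these 4 genes and held 43.4% of their 1684 UMIs there.

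Atp6v0d2 encodes the d2 subunit of V0 (chr4:19876841-19922605, minus strand), known also from osteoclasts. In type A-like cells it was at 2587 CPM (2502 to 2675) in Sham, 1923 CPM (1855 to 1993) in IRI24h-TDN and 1341 CPM (1104 to 1614) in IRI24h-TD, and at 2587 CPM (2479 to 2698), 2309 CPM (2259 to 2360) and 3026 CPM (2621 to 3476) in type B-like cells. Sham type A-like and type B-like cells did not differ beyond their intervals. The log2 ratios of IRI24h-TDN over Sham were -0.43 and -0.16. The next class, ascending limb-like cells, had 19.8 CPM (11.3 to 32.2) in Sham and 164 CPM (153 to 176) in IRI24h-TDN, a log2 ratio of 3.05 (2.34 to 3.87). In distal convoluted tubule-like cells 1 UMI in 45 cells of Sham stood against 259 UMIs in 425 cells of IRI24h-TDN (1.81 and 40.8 CPM), and in connecting tubule and principal-like cells the levels were 11.6 and 38.7 CPM. In ascending limb-like cells Atp6v0d2 reached 50 CPM only in IRI24h-TDN and therefore had to be higher there, and in the other two classes it stayed under that limit in Sham and IRI24h-TDN. Of 3707 genes tested in ascending limb-like cells, 10.1% were at least 2-fold lower and 8.5% at least 2-fold higher. The ascending limb-like cells of the libraries differed in other ways: 118 and 456 cells, medians of 5653 and 10028 UMIs, Slc12a1 at 8943 and 1784 CPM, Egf at 10169 and 151 CPM and Umod at 3671 and 2566 CPM. Whether the same part of the limb was sampled was not tested.

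Each of these 3 subunits has a general isoform, and the UMIs of each pair give the share of its members in a class. UMIs count captured molecules, and capture may differ between isoforms, so the shares are compared between classes and libraries only. The B1 gene took 89.8% (88.5 to 91.0) of the UMIs of Atp6v1b1 and Atp6v1b2 in type A-like cells of Sham and 77.5% (75.7 to 79.2) in those of IRI24h-TDN. Its share in type B-like cells was 85.5% (83.5 to 87.4) and 60.2% (58.8 to 61.7). The share was therefore lower in IRI24h-TDN in both types, and it was also lower in connecting tubule and principal-like cells (72.6% and 49.7%), ascending limb-like cells (59.8% and 9.52%) and distal convoluted tubule-like cells (34.7% and 23.0%). The general gene Atp6v1b2 was higher there, at 184 CPM in Sham and 308 CPM in IRI24h-TDN in type A-like cells and 228 and 486 CPM in type B-like cells (log2 ratios 0.75 and 1.09). It was higher in proximal tubule-like cells too (426 and 725 CPM) and in parietal epithelial cell (PEC)-like cells (229 and 446 CPM), and near its Sham level in podocyte-like cells (94.6 and 102.6 CPM).

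For the G and d subunits the shares in intercalated-like cells held. Atp6v1g3 took 94.7% and 96.2% of the UMIs of Atp6v1g1, Atp6v1g2 and Atp6v1g3 in type A-like cells of Sham and IRI24h-TDN, and Atp6v0d2 took 97.6% and 97.1% of those of Atp6v0d1 and Atp6v0d2. In connecting tubule and principal-like cells the G3 share was 8.06% and 6.73%, and the d2 share 5.71% and 22.7%. In ascending limb-like cells the d2 share was 27.1% (16.4 to 40.3) in Sham and 74.7% (72.0 to 77.3) in IRI24h-TDN, with the general gene Atp6v0d1 at 53.2 and 55.6 CPM. The G3 share was also higher in IRI24h-TDN in some other classes, at 1.62% and 10.1% in PEC-like cells and with 1 of 15 UMIs and 141 of 188 UMIs in neutrophil-like cells, the class in which 3 cells held most of the intercalated UMIs.

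**Figure D3:**
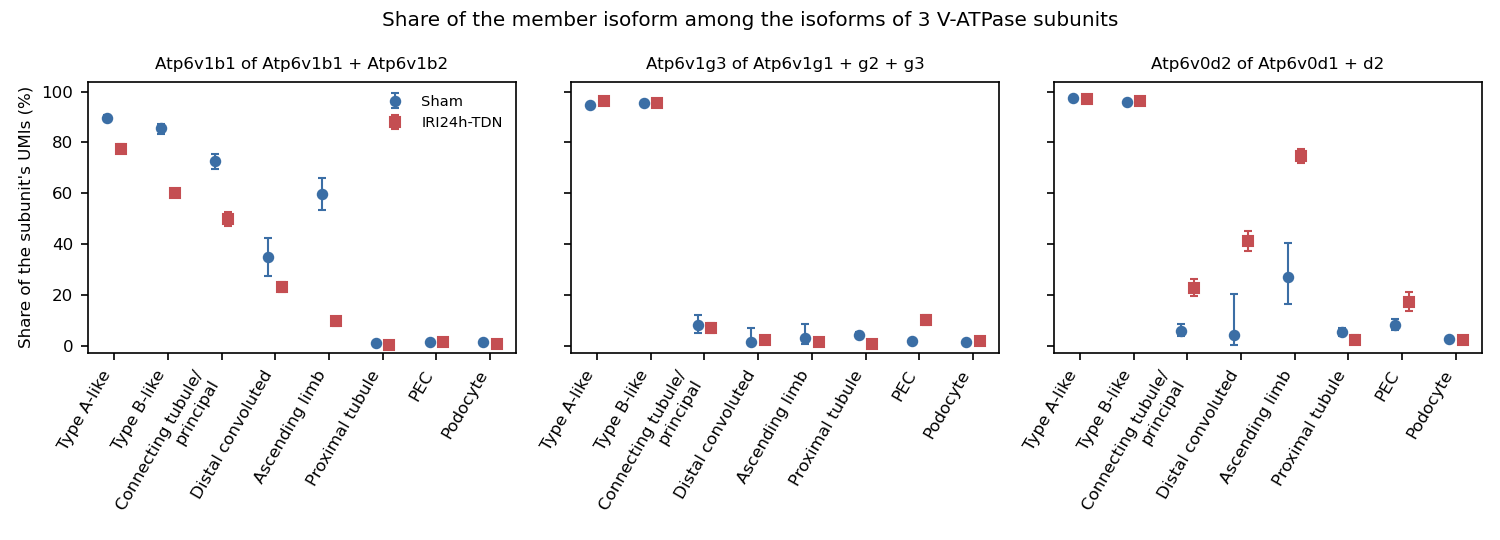
Share in percent of a V-ATPase subunit's UMIs taken by Atp6v1b1, Atp6v1g3 and Atp6v0d2 among the isoforms of the B, G and d subunits, by cell class, with Sham as circles, IRI24h-TDN as squares and exact 95% binomial intervals as bars. The B1 share is lower in IRI24h-TDN in both intercalated-like types (89.8% and 77.5%, 85.5% and 60.2%), and the d2 share is higher there in ascending limb-like cells (27.1% and 74.7%).

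Car2 (chr3:14886273-14900770, plus strand) was at 6576 CPM (6440 to 6715) in type A-like cells of Sham, 4766 CPM (4659 to 4876) in those of IRI24h-TDN and 2491 CPM (2164 to 2854) in those of IRI24h-TD, and at 4915 CPM (4766 to 5067), 4590 CPM (4520 to 4662) and 5901 CPM (5329 to 6516) in type B-like cells. The log2 ratios of IRI24h-TDN over Sham were -0.46 (-0.51 to -0.42) and -0.10 (-0.15 to -0.05). Both ratios were well under 2-fold. The other classes with Car2 in Sham were connecting tubule and principal-like cells at 1653 CPM, PEC-like cells at 1020 CPM, proximal tubule-like cells at 496 CPM and ascending limb-like cells at 404 CPM. In IRI24h-TDN they were at 1551, 1196, 949.8 and 1890 CPM, with log2 ratios of -0.09, 0.23, 0.94 and 2.23. IRI24h-TD, the tdT+ cells after the same injury, had 1326 CPM (1254 to 1401) in 86 proximal tubule-like cells and 1186 CPM in 392 PEC-like cells. Car2 was thus higher in ascending limb-like cells of IRI24h-TDN and in proximal tubule-like cells of both IRI libraries than in those of Sham. The proximal tubule-like cells differed in other ways: 1 of their clusters, with Slc34a1 and Slc5a12 among its leading genes, held 266 of 1072 cells in Sham, 5 of 158 in IRI24h-TDN and 0 of 86 in IRI24h-TD, and the median log2 ratio of all 4196 genes tested there was 0.24. Their part in the ratio of Car2 was not tested. Podocyte-like cells had 2.25 to 11.9 CPM.

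Foxi1 (chr11:34204338-34208089, minus strand) was at 487 CPM (450 to 525) in type A-like cells of Sham, 655 CPM (616 to 697) in those of IRI24h-TDN and 323 CPM (213 to 470) in those of IRI24h-TD. Type B-like cells had 565 CPM (516 to 619), 582 CPM (557 to 608) and 1528 CPM (1245 to 1857), the last in 5 cells. The log2 ratios of IRI24h-TDN over Sham were 0.43 (0.29 to 0.57) and 0.04 (-0.10 to 0.19), and only the second interval included 0. Thinned to 2000 UMIs a cell, the second was 0.68, and over the other alternatives it lay on either side of 0. Summed over the type A-like cells, Foxi1 was not lower in IRI24h-TDN, while Slc4a1 was 6.63-fold lower. Within IRI24h-TDN, Foxi1 was at 624 CPM (544 to 712) in the 35 type A-like cells with neither exchanger. It was at 718 CPM (668 to 771) in the 93 with Slc4a1 alone. Whether the levels of Foxi1 and Slc4a1 are linked was not tested. Connecting tubule and principal-like cells had 3.15 CPM of Foxi1 in Sham and 15.1 CPM in IRI24h-TDN, and podocyte-like cells 0.304 and 0.491 CPM.

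**Figure D4:**
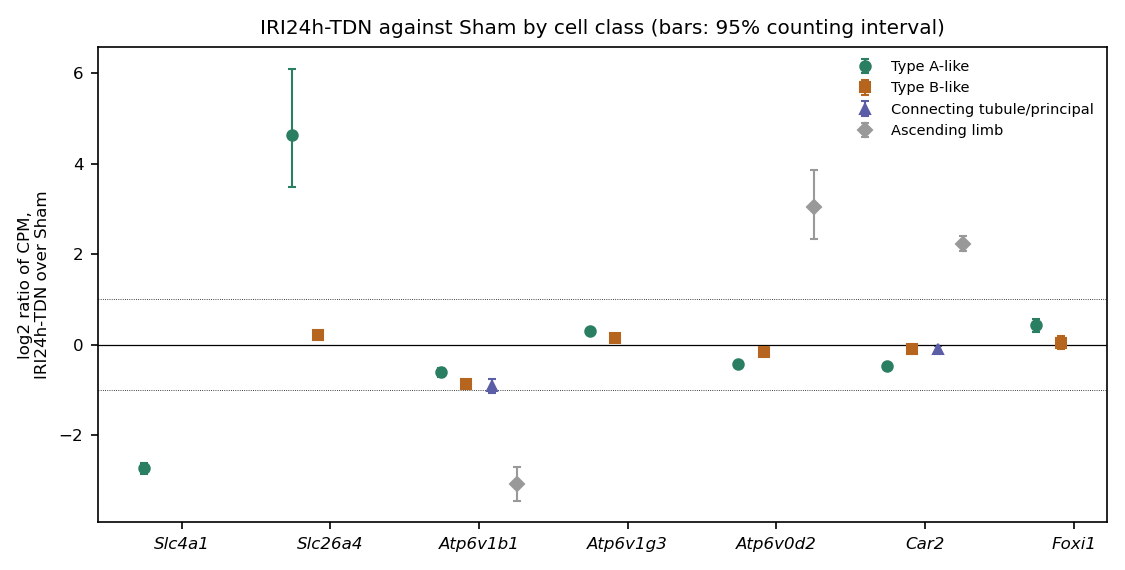
Log2 ratio of the level in IRI24h-TDN over that in Sham (vertical) for each gene (horizontal) in type A-like, type B-like, connecting tubule and principal-like and ascending limb-like cells, with 95% counting intervals as bars, for genes with at least 50 CPM in either library. Slc4a1 in type A-like cells is at -2.73, the values of the other genes in intercalated-like cells lie between -0.87 and 0.43 apart from Slc26a4 in type A-like cells, and ascending limb-like cells have Atp6v1b1 at -3.07, Atp6v0d2 at 3.05 and Car2 at 2.23.

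The 57 other genes of acid-base transport give the setting of the 7. Of these, 28 had at least 50 CPM in intercalated-like cells, 27 of them were higher there than in all other cells and 18 at least 4-fold, and their median log2 ratio was 2.67 against 0.04 for all 3644 genes. Of all 3644 genes, 9.71% were at least 4-fold higher. Genes entered by being high in intercalated-like cells, and those under 50 CPM there were not counted in either direction. The counts are therefore descriptions and not a test. The pump subunits Atp6v1c2 (672-fold), Atp6v0a4 (23.1-fold), Atp6v1a (8.75-fold), Atp6v1d, Atp6ap2, Atp6v1h, Atp6v0b and Atp6v1e1 (4.55-fold) were among the 18. So were the exchanger Slc4a9 (AE4, 678-fold), the membrane carbonic anhydrase Car12 (58.8-fold), the ammonia channels Rhbg (63.3-fold) and Rhcg (29.1-fold), Bsnd, which encodes barttin, the transcription factor Tfcp2l1 (21.3-fold), the 2-oxoglutarate receptor Oxgr1 (342-fold) and the vasopressin receptor Avpr1a (446-fold). The general isoforms Atp6v1c1, Atp6v1g1 and Atp6v0d1 were within 1.15-fold of the other cells, and Atp6v1b2 was 2.46-fold higher. Atp6v0a1, a general isoform beside Atp6v0a4, was lower in intercalated-like cells, at 58.3 against 108 CPM (0.538-fold).

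Between the mixtures, 5 of 31 such genes were at least 2-fold lower in type A-like cells of IRI24h-TDN and 0 higher, beside 4.3% and 7.81% of all genes tested. These were Atp4a (114 and 11.5 CPM, log2 ratio -3.32), which encodes the catalytic subunit of a proton-potassium pump, Slc4a9 (328 and 120 CPM, -1.45), Atp6v1c2 (608 and 265 CPM, -1.20), Oxgr1 (918 and 416 CPM, -1.14) and Atp6v1a (3704 and 1742 CPM, -1.09), the catalytic A subunit of V1. For type B-like cells, where 5.12% of all genes tested were lower and 5.88% higher, 4 of 29 were lower, Atp4a (93.0 and 12.5 CPM, -2.89), Car12 (4059 and 1574 CPM, -1.37), Rhcg (502 and 228 CPM, -1.14) and Bsnd (91.8 and 45.0 CPM, -1.03), and 1 was higher, Atp6v1b2. Atp4a in both types and Bsnd in type B-like cells reached 50 CPM only in Sham and therefore had to be lower in IRI24h-TDN. The median log2 ratios of the lists were -0.27 and -0.25, against 0.0097 and -0.015 for all genes tested.

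Over 38 profiles of 16 classes and clusters by library, the genes most like the mean profile of the 7, by Pearson's r of log2(CPM + 10) among 15563 genes, were Cpsf4l (0.94), Guca2a (0.94), which encodes guanylin, Slc4a9 (0.93), Aqp6 (0.93) and Dmrt2 (0.92). The profiles share libraries and depth, and the values are descriptions. The 7 genes themselves had 0.76 for Car2 to 0.95 for Atp6v0d2, each against a mean that includes the gene itself. Aqp6 and Dmrt2 were also among the markers that named the intercalated-like clusters.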

How the data were processed

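Single-cell libraries of mouse kidney cortex were made on the BD Rhapsody platform, 1 for each of the 3 conditions. The deposited tables hold raw UMI counts per gene and barcode, made by the authors with UMI-tools after CASAVA 1.8 on mm10, with Seurat also named, per the submitters' processing notes. How multi-mapped reads were assigned is not given in the sources used here.

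From these counts, cells with at least 200 genes and at most 50% mitochondrial UMIs were kept. Counts were scaled to 10000 per cell, and 2000 variable genes, without the 7 genes, the 57 other acid-base genes and mitochondrial, ribosomal and haemoglobin genes, gave 30 principal components. These were corrected between libraries by the Harmony algorithm (theta 2, written for this work), joined over 15 neighbours and clustered by Leiden at resolution 1 (leidenalg 0.10.2, igraph 0.11.9). Clusters were named from 14 marker lists. Doublets were scored against simulated ones but not removed. Cells under 2000 UMIs (1117 in all, 13 of them intercalated-like) were left out of thinned values.

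Summed counts were compared as CPM in Python 3.11.15 (scipy 1.17.1), for genes with at least 50 CPM in the higher group, and called at 2-fold between libraries or 4-fold between cell classes. Fold changes and intervals were tested on simulated data, drawn as Poisson counts from the summed Sham profiles of the types. These hold no spread between cells or animals, so the intervals were not tested for such spread. The text names the 7 genes, acid-base genes by direction and by 4-fold level in intercalated-like cells, general isoforms of the pump subunits, the 5 genes most like the 7, and the 10 genes per direction with the largest fold between cells of either exchanger, with at least 50 UMIs and 100 CPM. The acid-base genes with a 2-fold difference between libraries, and the individual cells and markers described beside the exchangers, were named after their values were seen. Some genes that these rules take in are not reported here. The genes and lists were chosen with earlier results of these data known. Alternatives were other filters, clustering settings, cell naming, doublet removal, thinning, detection at 2 UMIs and scaling by TMM (edgeR 4.0.16, R 4.3.3).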

Additional observations from a re-analysis of the deposited data

Results flagged for a closer look

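In 4 cases the log2 ratio of IRI24h-TDN over Sham had the opposite sign in another cell class from that in intercalated-like cells, with 1 library on each side. The difference between classes was not tested in any of them. Atp6v0d2 was at 3.05 in ascending limb-like cells and at -0.24 in intercalated-like cells, but it reached 50 CPM in ascending limb-like cells only in IRI24h-TDN (19.8 and 164 CPM) and therefore had to be higher there. Car2 was at 2.23 in ascending limb-like cells, at 0.94 in proximal tubule-like cells and at 0.23 in PEC-like cells, and at -0.35 in intercalated-like cells.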

How the results depend on the processing

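Each condition had 1 library, so counting intervals carry no spread between animals, and a difference between conditions cannot be told apart from one between libraries. No paired analysis was possible because each condition had 1 library. With at most 20% mitochondrial UMIs, 273 intercalated-like cells were left in 1 cluster without types, the median share of the 7 genes' UMIs in them was 92.0% in place of 95.3%, and their median log2 ratio of IRI24h-TDN over Sham -0.084 in place of -0.24. Without the correction between libraries these were 96.3% and -0.29, and Slc26a4 in type B-like cells was at 0.092 in place of 0.21. Thinned to 2000 UMIs, Slc26a4 there was at 0.58, and 0 cells had both exchangers. With 2 UMIs of each exchanger asked for, 0.226% of cells had both in place of 1.66%. With each cell named without clusters, the share was 96.1% and Slc4a1 in type A-like cells at -3.03. Without the top 6% of doublet scores Slc4a1 was at -2.55, in place of -2.73. Chosen after seeing the data, the median within type A-like cells was -0.43 and within type B-like cells -0.028 (0.26 after thinning, 0.039 under TMM). Genes at least 2-fold lower in type A-like cells numbered 395 after thinning, 617 from 10 CPM, and 102 in place of 174 without genes lower in podocyte-like cells (added after seeing the data). From 10 CPM, 848 were higher there in place of 316. In type B-like cells thinning gave 510 lower and 467 higher genes, and 10 CPM gave 665 and 714, in place of 208 and 239. Over all intercalated-like cells, 249 genes were lower at 20% mitochondrial UMIs, 278 after thinning and 465 from 10 CPM, in place of 157, and 590 higher from 10 CPM in place of 244.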

Other observations

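In the 29 connecting tubule and principal-like cells of IRI24h-TD, Atp6v1g3 and Atp6v1b1 had 67 UMIs each (239 CPM) and Atp6v0d2 had 38 UMIs (136 CPM). Of these UMIs, the cell with the most held 83.6% for Atp6v1g3, 17.9% for Atp6v1b1 and 86.8% for Atp6v0d2. The same class had 12.5 CPM of Atp6v1g3 and 38.7 CPM of Atp6v0d2 in the 339 cells of IRI24h-TDN. Of the 23 cells outside the intercalated-like clusters with at least 10 UMIs of Slc4a1, Slc26a4, Atp6v1g3 and Foxi1, 5 were PEC-like, 4 monocytic-like, and 3 each neutrophil-like, mesangial and smooth muscle-like, and connecting tubule and principal-like. In PEC-like cells Atp6v1g3 was at 4.23 CPM in Sham and 30.1 CPM in IRI24h-TDN, and 5 cells held 54.0% of the UMIs of these 4 genes in the class.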
